A study of Rattus norvegicus with 6 samples.

Results

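Elastic fibre genes were followed in the mesenterial fat of newborn rats, the adipose tissue along the vessels that supply the gut. The 10 genes were taken by name, as elastin, fibrillins, fibulins, lysyl oxidases and microfibril proteins, out of 14217 genes that the array annotation names from probe sets with 1 symbol. They had 14 such probe sets, and all 14 were bright enough to be tested. Eln, Fbn1, Fbln1 and Lox had 2 probe sets each and the other 6 genes had 1. The family was taken up after earlier results of the same arrays had shown a lower Eln signal in the deficient group, so the values between the diets below describe these arrays and are no independent evidence of a difference.

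All pups were wildtype newborns of the outbred Sprague-Dawley strain. In the deficient group (3 arrays) the dams ate a diet holding 0 IU of vitamin D per kg, and in the adequate group (3 arrays) it held 1000 IU per kg, so the diet was the mothers' and not the pups' own. Each of the 6 Affymetrix Rat Genome arrays gave a signal per probe set, a set of short oligonucleotides that together read 1 transcript. Nothing in the labels ties the arrays to separate animals or litters, so errors and p-values cover only the spread between samples, which may be technical, and their number limits the precision of every value.

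Elastic fibres let vessel walls, skin and loose connective tissue recoil after stretch. Cells secrete tropoelastin, the soluble elastin monomer, onto a scaffold of microfibrils built from fibrillins and microfibril-associated glycoproteins. Fibulins help to bring the monomer to the scaffold, and lysyl oxidases, which are copper enzymes, cross-link it into insoluble elastin. Smooth muscle cells and fibroblasts are major producers, and in rodents most elastin is laid down around birth and in early postnatal life.

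A pair of arrays, deficient 1 and deficient 2, differed from the other 4 across the whole transcriptome. The first principal component held 49.5% of the variance and placed them at 43.1 and 46.4, against -20.3 for deficient array 3 and -26.2 to -18.5 for the adequate arrays. The bacterial spike-in controls of the hybridisation read 7.06 and 9.94 times the adequate mean on deficient arrays 1 and 2, 0.942 times on deficient array 3, and 0.740 to 1.16 times on the adequate arrays. The beta-actin 3' over 5' ratio rises as RNA degrades. It was 7.56, 6.80 and 2.35 on deficient arrays 1 to 3 and 2.39, 4.81 and 2.58 on adequate arrays 1 to 3. The same ratio for GAPDH was 1.71, 1.36 and 1.09 on the deficient arrays and 1.18, 1.30 and 1.13 on the adequate arrays. By GAPDH, deficient array 2 was thus close to adequate array 2. Of 6 adipocyte markers, Fabp4, Lpl and Cd36 were bright enough to test. Plin1, Adipoq and Cidec were dim, with mean log2 signals of at most 4.48 in either group. Lep, outside those 6, was dim as well, at 2.30 in the deficient and 1.68 in the adequate group. The adipocyte markers were thus mixed, and they do not settle how much of the tissue was adipocytes. Of 2 Y-linked genes, Eif2s3y was dim only on array 1 of the adequate group, at 3.20 against at least 10.77 elsewhere, while Uty read 10.55 there, within the 9.94 to 11.43 of the other arrays.

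In the elastic fibre family, Mfap2, Fbln5 and the brighter Eln and Fbln1 probe sets had lower signals in the deficient group. Fbn2 and both Lox probe sets had higher ones. Fbn1, Mfap5, Fbln2, Loxl1 and the dimmer Eln probe set lay close to the adequate group on average, and the dimmer Fbln1 probe set spread widely. No probe set of the family passed the threshold of an adjusted p under 0.05 in limma, where 0 of 18625 tested probe sets (0%) did. The lowest adjusted p in the family was 0.344. Of the 14 probe sets, 3 were lower and 0 higher at an unadjusted p below 0.05, beside 8.18% lower and 6.03% higher among all tested probe sets. The groups did not overlap for 3 lower and 1 higher probe sets of the family, where the share over all tested probe sets was 10.8% lower and 6.55% higher. The median log2 change, deficient minus adequate, was -0.05 over the 14 probe sets and -0.05 over all tested probe sets, with 9 of the 14 below 0 against 55.3% of all.

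**Figure D1:**
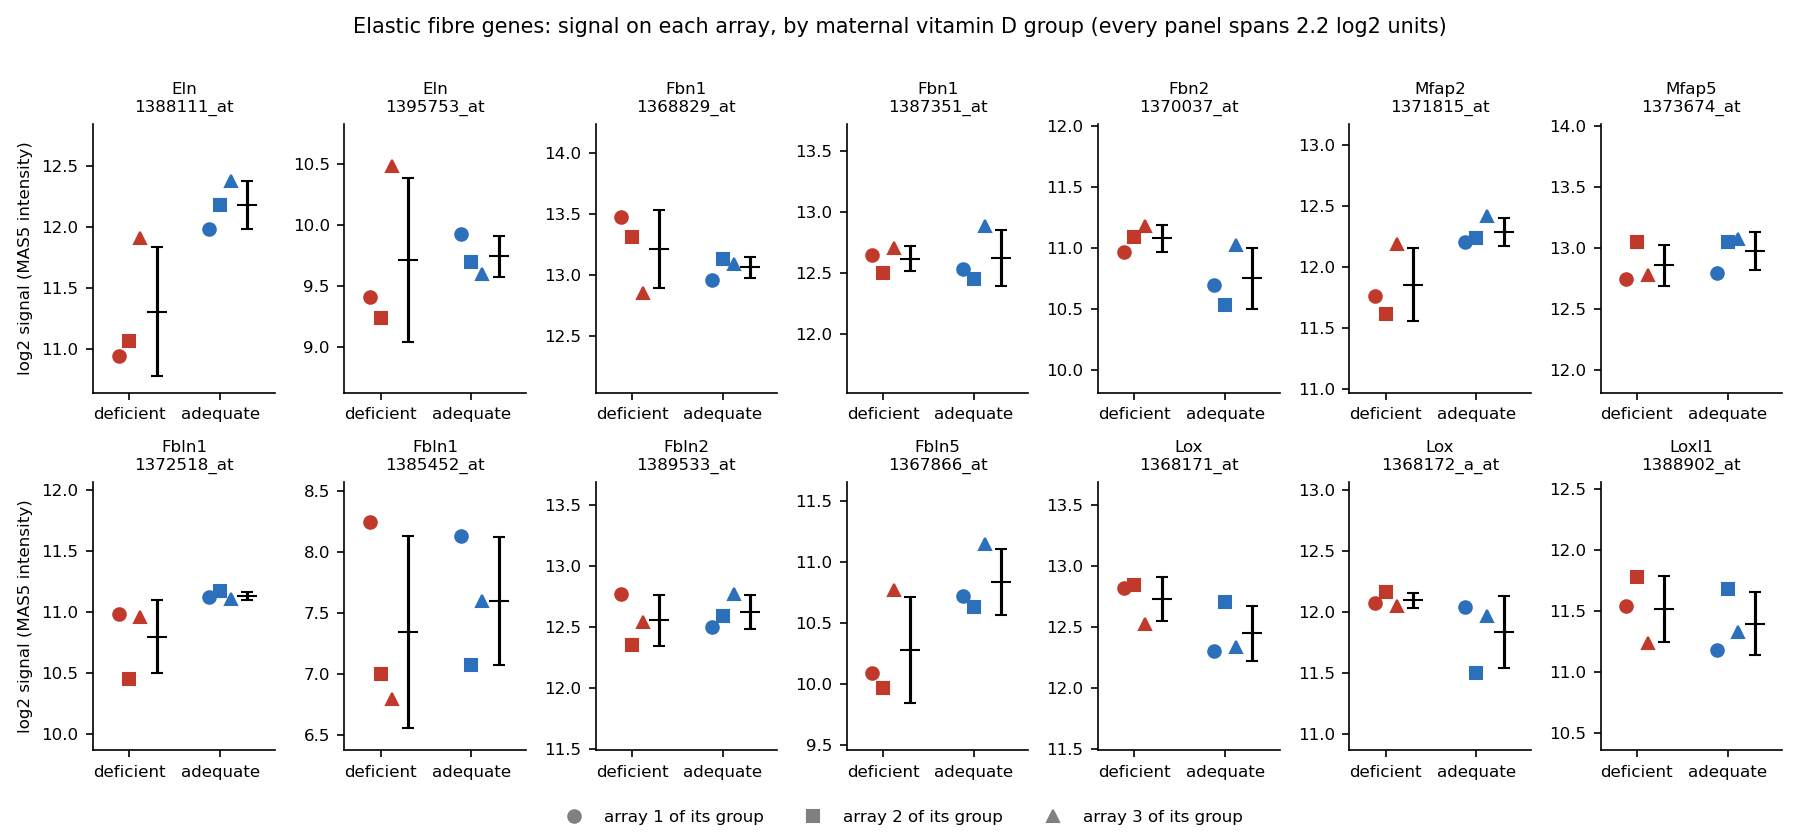
Log2 MAS5 signal of the 14 elastic fibre probe sets on each array, deficient arrays (red) left of adequate arrays (blue) in every panel, with symbols for array 1, 2 and 3 of each group and bars for the mean ± SD (n = 3). The bright Eln probe set, Mfap2 and the bright Fbln1 probe set are lower on all 3 deficient arrays without overlap, and the gap is widest on deficient arrays 1 and 2 for Eln and Mfap2.

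Eln encodes elastin itself, the core of the fibre. Its brighter probe set, 1388111_at, read 10.94, 11.06 and 11.91 on deficient arrays 1 to 3, against 11.98, 12.18 and 12.37 on adequate arrays 1 to 3, in log2 signal. The groups did not overlap, but deficient array 3 lay only just under the lowest adequate array while deficient arrays 1 and 2 lay more than a full log2 unit under the adequate mean. The group means were 11.30 ± 0.53 in the deficient and 12.18 ± 0.20 in the adequate group (SD, n = 3 each). The log2 change was -0.87 ± 0.24 (SE), a fold of 0.545. Relative to the adequate mean, deficient arrays 1, 2 and 3 were at -1.23, -1.12 and -0.27.

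Leaving out deficient array 3 gave a log2 change of -1.18 for this probe set, and deficient array 3 alone gave -0.27. With the hybridisation controls as a covariate it was -0.36, in a fit that rests largely on deficient array 3. Without adequate array 1 it was -0.97. In a bulk sample, fewer cells of a type and less RNA per cell cannot be told apart. The hybridisation controls and the beta-actin ratio moved with the Eln signal on deficient arrays 1 and 2, and their part in the result was not tested.

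The dimmer Eln probe set, 1395753_at, did not follow the brighter one on every array. It read 9.41, 9.24 and 10.48 on deficient arrays 1 to 3, against 9.93, 9.70 and 9.60 on adequate arrays 1 to 3, in log2 signal. Deficient array 3 was the highest of the 6 arrays here and the other deficient arrays were the lowest, so the groups overlapped. The log2 change was -0.04 ± 0.29 (SE), and it was 0.74 with deficient array 3 alone. Which part of the Eln transcript each probe set reads is not given in the sources used here.

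Because both probe sets are read on the same array, their ratio does not depend on that array's scaling. The log2 ratio of the brighter over the dimmer Eln probe set, set to 0 at the adequate mean, was -0.90, -0.61 and -1.0 on deficient arrays 1 to 3, against -0.38, 0.04 and 0.34 on adequate arrays 1 to 3. All 3 deficient arrays lay below all 3 adequate arrays, and deficient array 3 was not set apart from the other deficient arrays in this ratio. The deficient mean was -0.84, with an SD of 0.20 in the deficient and 0.36 in the adequate group (n = 3 each). This ratio was formed after the values had been seen. On deficient arrays 1 and 2 the brighter probe set was at -1.23 and -1.12 from the adequate mean and the dimmer one at -0.34 and -0.51. On deficient array 3 they were at -0.27 and 0.74, so there the low ratio came with a high signal of the dimmer probe set.

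**Figure D2:**
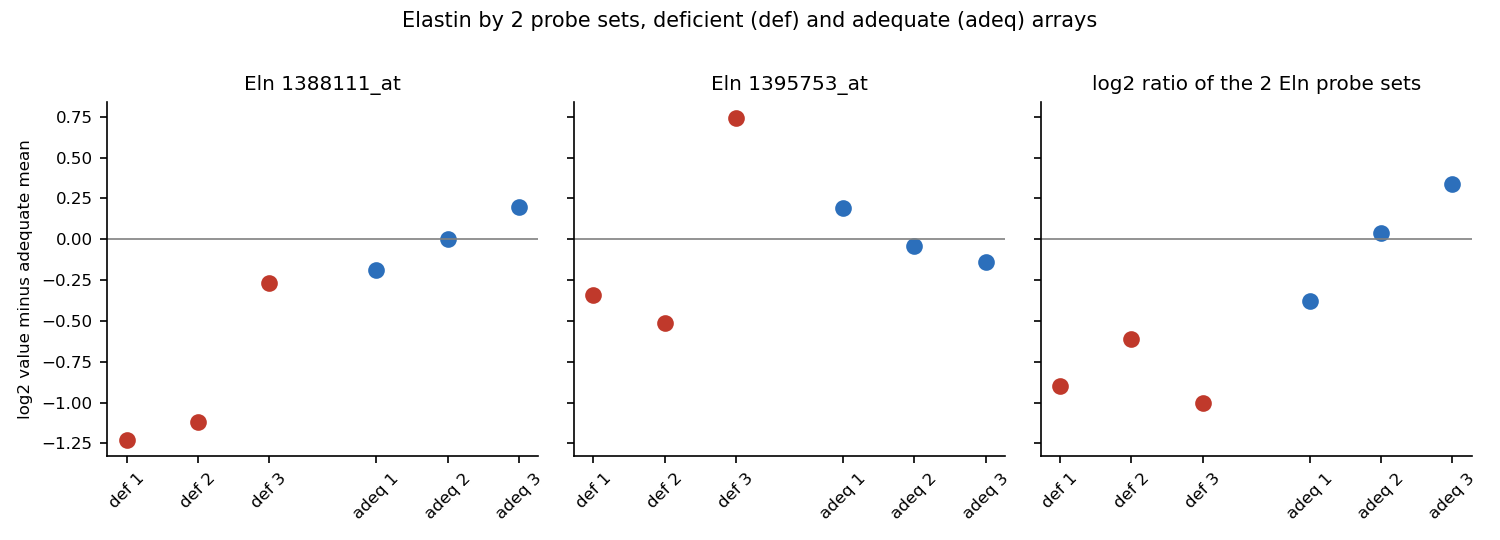
Log2 value minus the adequate mean on the 3 deficient (def, red) and 3 adequate (adeq, blue) arrays, for the brighter Eln probe set (left), the dimmer one (middle) and their log2 ratio (right). On deficient array 3 the brighter probe set is at -0.27 and the dimmer one at 0.74, and the ratio is below every adequate array on all 3 deficient arrays.

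Promoter sequences from RefSeq (GRCr8) were held for 7 of the 10 genes, and Eln, Lox and Fbln1 could not be searched. Those of Mfap2 and Fbln5 are printed because both genes were low on deficient arrays 1 and 2, with that of Fbn1, which was not. Each runs 5′ to 3′ on the gene's strand, from 250 bases before to 50 after the annotated start. Capitals mark a GC box (GGGCGG) or a half-site of the kind the vitamin D receptor binds in pairs (AGGTCA in its usual form, with AGTTCA as one variant, GGGTCA as another and GGTTCA as the last), each searched on both strands. Mfap2 lies at chr5:158597478-158597777 on the plus strand, Fbln5 at chr6:126742657-126742956 on the minus strand, and Fbn1 at chr3:133203341-133203640 on the minus strand.
Mfap2: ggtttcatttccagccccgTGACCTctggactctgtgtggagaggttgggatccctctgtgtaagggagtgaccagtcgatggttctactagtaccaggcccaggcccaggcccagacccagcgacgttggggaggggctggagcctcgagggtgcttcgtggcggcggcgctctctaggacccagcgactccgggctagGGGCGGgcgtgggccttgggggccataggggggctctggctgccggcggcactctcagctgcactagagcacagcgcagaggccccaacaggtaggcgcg
Fbln5: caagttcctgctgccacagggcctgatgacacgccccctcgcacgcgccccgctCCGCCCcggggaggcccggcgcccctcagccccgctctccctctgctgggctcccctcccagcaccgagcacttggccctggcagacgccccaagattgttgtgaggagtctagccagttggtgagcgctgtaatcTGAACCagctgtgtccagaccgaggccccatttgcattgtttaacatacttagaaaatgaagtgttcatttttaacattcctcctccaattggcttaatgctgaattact
Fbn1: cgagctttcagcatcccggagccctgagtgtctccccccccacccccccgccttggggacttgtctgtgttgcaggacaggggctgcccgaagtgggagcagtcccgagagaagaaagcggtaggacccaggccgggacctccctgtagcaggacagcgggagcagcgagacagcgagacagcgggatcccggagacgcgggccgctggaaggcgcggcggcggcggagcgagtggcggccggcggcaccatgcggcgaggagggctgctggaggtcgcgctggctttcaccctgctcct
Mfap2 and Fbln5 each held 1 GC box and 1 half-site, and Fbn1 held neither. No half-site was found in the other 4 promoters, of Fbln2, Fbn2, Loxl1 and Mfap5, while Fbln2 held 3 GC boxes. Half-sites occurred in 44.4% and GC boxes in 33.1% of all 33469 promoters of this length, so 2 of 7 and 3 of 7 promoters are ordinary shares. TATA boxes (TATAAA) and AP-1 sites (TGANTCA) were found in 0 of the 7, beside 14.2% and 7.33% of all. A match of letters is a description of the window and not of binding. Whether a half-site goes with a low signal was not tested.

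Among the microfibril genes, Mfap2 was lower in the deficient group, Fbn2 was higher on average, and Fbn1 and Mfap5 showed small differences. Mfap2, whose promoter is printed first, encodes a small glycoprotein that binds fibrillin and tropoelastin. It read 11.76, 11.61 and 12.19 on deficient arrays 1 to 3, against 12.20, 12.24 and 12.42 on adequate arrays 1 to 3, in log2 signal. The groups did not overlap, although deficient array 3 lay only just under adequate array 1. This gave a log2 change of -0.43 ± 0.18 (SE), a fold of 0.741, with the deficient mean at 11.86 ± 0.30 and the adequate mean at 12.29 ± 0.12 (SD, n = 3 each). With deficient array 3 alone it was -0.09, and without that array -0.60.

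Fbn2 encodes fibrillin-2, the fibrillin known chiefly from fetal and early postnatal tissue. Its log2 signal was 10.96, 11.09 and 11.18 on deficient arrays 1 to 3, against 10.69, 10.53 and 11.02 on adequate arrays 1 to 3. The groups overlapped, since adequate array 3 lay above deficient array 1. Fbn2 had a log2 change of 0.33 ± 0.17 (SE). Unlike the Eln signal, it was as large on deficient array 3, at 0.43 above the adequate mean, as on deficient arrays 1 and 2, at 0.21 and 0.34.

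Fbn1 encodes fibrillin-1, the main structural protein of the microfibril. Its probe set 1368829_at read 13.47, 13.31 and 12.85 on deficient arrays 1 to 3, against 12.96, 13.13 and 13.09 on adequate arrays 1 to 3, in log2 signal. Deficient arrays 1 and 2 were the highest of the 6 and deficient array 3 the lowest. Its log2 change was 0.15 ± 0.19 (SE), and the direction turned to -0.13 after quantile normalization. The other Fbn1 probe set, 1387351_at, read 12.64, 12.50 and 12.70 on deficient arrays 1 to 3, against 12.53, 12.45 and 12.88 on adequate arrays 1 to 3, a log2 change of -0.01 ± 0.17 (SE).

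Mfap5 encodes the second microfibril-associated glycoprotein, a paralogue of Mfap2. It had log2 signals of 12.75, 13.05 and 12.78 on deficient arrays 1 to 3, against 12.80, 13.05 and 13.08 on adequate arrays 1 to 3. The groups overlapped over almost their whole range. The difference was -0.12 ± 0.17 (SE) on the log2 scale, less than its standard error. The Mfap2 over Mfap5 log2 ratio within arrays, relative to the adequate mean, was -0.29, -0.75 and 0.11 on deficient arrays 1 to 3, against 0.10, -0.13 and 0.03 on adequate arrays 1 to 3. The paralogues thus differed on deficient arrays 1 and 2 and not on deficient array 3.

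Of the fibulins, Fbln5 and the brighter Fbln1 probe set were lower in the deficient group and Fbln2 was not. Fbln5 encodes fibulin-5, which binds tropoelastin and lysyl oxidases and is needed for elastic fibre assembly in mice. It read 10.09, 9.96 and 10.77 on deficient arrays 1 to 3, against 10.72, 10.63 and 11.14 on adequate arrays 1 to 3, in log2 signal. Deficient arrays 1 and 2 were below every adequate array, while deficient array 3 lay within the adequate range. The log2 change was -0.55 ± 0.23 (SE), a fold of 0.681, and it was -0.06 with deficient array 3 alone and -0.80 without that array.

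Fbln1 encodes fibulin-1, a fibulin found in elastic fibres and in basement membranes. Its probe set 1372518_at had log2 signals of 10.98, 10.45 and 10.96 on deficient arrays 1 to 3, against 11.12, 11.17 and 11.11 on adequate arrays 1 to 3. All deficient arrays lay below all adequate arrays, and deficient array 2 was the lowest by far. The log2 change was -0.34 ± 0.17 (SE), and it was -0.17 both without deficient array 2 and with deficient array 3 alone.

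The dimmer Fbln1 probe set, 1385452_at, spread widely in both groups. It read 8.25, 7.0 and 6.80 on deficient arrays 1 to 3, against 8.13, 7.08 and 7.60 on adequate arrays 1 to 3, in log2 signal. Array 1 was the highest in each group, and the log2 change of -0.26 ± 0.40 (SE) was smaller than its standard error. Fbln2, whose protein fibulin-2 binds fibrillin and elastin, read 12.77, 12.35 and 12.54 on deficient arrays 1 to 3, against 12.50, 12.59 and 12.77 on adequate arrays 1 to 3, a log2 change of -0.07 ± 0.17 (SE).

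The cross-linking enzymes had higher values in the deficient group or lay close to the adequate group. Lox encodes lysyl oxidase, which oxidises lysines of tropoelastin and of collagens. Its probe set 1368171_at read 12.82, 12.84 and 12.52 on deficient arrays 1 to 3, against 12.30, 12.70 and 12.33 on adequate arrays 1 to 3, in log2 signal, with a log2 change of 0.28 ± 0.18 (SE). Adequate array 2 lay above deficient array 3, so the groups overlapped. The other Lox probe set, 1368172_a_at, read 12.08, 12.17 and 12.05 on deficient arrays 1 to 3, against 12.04, 11.50 and 11.97 on adequate arrays 1 to 3. These groups did not overlap, although deficient array 3 lay only just above adequate array 1, and the log2 change was 0.27 ± 0.17 (SE).

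Adequate array 2 was the highest of its group for the first Lox probe set and the lowest for the second. Without that array the log2 changes of the pair were 0.41 and 0.10. Loxl1, the lysyl oxidase relative tied most closely to elastin in mice, read 11.54, 11.78 and 11.24 on deficient arrays 1 to 3, against 11.18, 11.68 and 11.33 on adequate arrays 1 to 3. The groups overlapped throughout, and the log2 change was 0.13 ± 0.19 (SE).

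**Figure D3:**
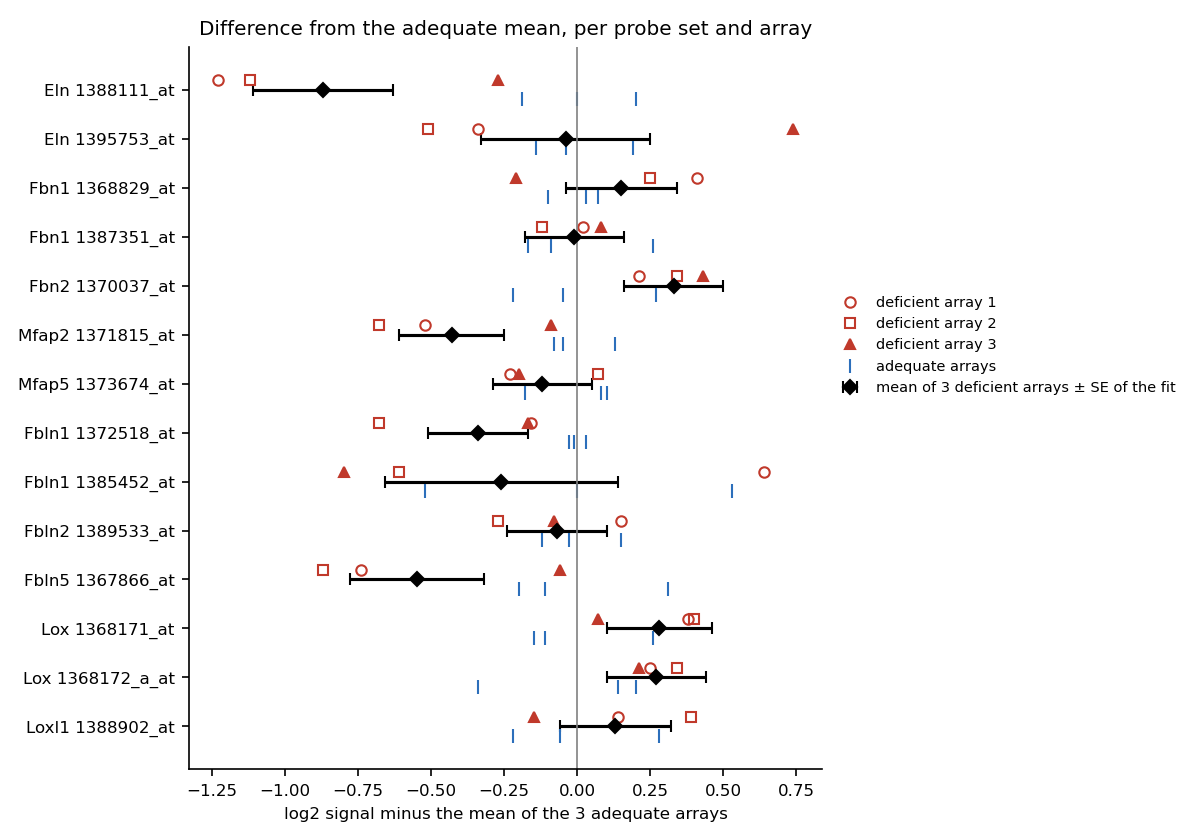
Log2 signal minus the mean of the 3 adequate arrays, for each of the 14 probe sets (rows), with the deficient arrays as red symbols, the adequate arrays as blue ticks and the fitted log2 change ± SE as black diamonds. Deficient arrays 1 and 2 carry most of the distance for the bright Eln probe set, Mfap2 and Fbln5, where deficient array 3 is at -0.27, -0.09 and -0.06.

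The bright Eln probe set, Mfap2 and Fbln5 were thus low on the same pair of arrays. Without deficient array 3 these 3 probe sets had adjusted p of 0.00104, 0.00891 and 0.0115 in limma. In that fit 19.4% of all tested probe sets passed. With array weights they also passed, beside 18.6% of all tested probe sets. In neither fit did another probe set of the family pass. Once the hybridisation controls entered the fit, the 3 probe sets had log2 changes of -0.36, -0.12 and -0.10, against -0.87, -0.43 and -0.55 without them. Each adjusted p in limma was then 0.989. The controls were high only on deficient arrays 1 and 2, so the diet difference in this fit rests largely on deficient array 3. Of the 11 other probe sets, those of Fbn1, Lox and Loxl1 were not low on deficient arrays 1 and 2. The dimmer Eln and the brighter Fbln1 probe set were low there, each at a mean of -0.42 from the adequate mean. Without deficient array 3 their adjusted p in limma was 0.0909 and 0.0912.

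The Eln signal relative to other members was compared within arrays. Relative to the adequate mean, the log2 ratio of Eln over Fbn1 was -1.64, -1.37 and -0.06 on deficient arrays 1 to 3, against -0.10, -0.07 and 0.16 on adequate arrays 1 to 3. That of Eln over Lox was -1.61, -1.52 and -0.34 on the deficient arrays, against -0.05, -0.26 and 0.31 on the adequate arrays. The Eln over Mfap2 ratio was closer to 0, at -0.71, -0.44 and -0.18 on the deficient arrays and -0.11, 0.05 and 0.06 on the adequate arrays. On deficient array 3 the ratio over Fbn1 lay inside the adequate range and those over Lox and Mfap2 just below it. These ratios use the brightest probe set of each gene and were formed after the values had been seen.

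The likeness of profiles was measured as the root mean square difference between log2 signals over the 6 arrays, each centred on its own mean. Within the family the profiles nearest to the bright Eln probe set were those of Fbln5, at 0.208, and Mfap2, at 0.275. Lox 1368171_at was at 0.727 and the other Eln probe set at 0.483, farther than Fbln1 1372518_at at 0.412. Outside the family the 5 nearest tested probe sets to Eln belonged to Cpne7 at 0.0833, Slc44a2 at 0.0930, Capn6 at 0.106, Ganc at 0.115 and Cybc1 at 0.119. Their log2 changes lay between -0.83 and -0.70, and each was low on deficient arrays 1 and 2. Both follow from the choice by likeness to the Eln profile over these same arrays.

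For Mfap2 the 3 nearest were Pitpnm2, Ddx41 and Stim1, at 0.0392 to 0.0427. For Fbln1 1372518_at they were Tmem59l, Znrd2 and Pdcd4, at 0.0325 to 0.0430, and for Lox 1368172_a_at Pals1, Phf14 and Cpd, at 0.0372 to 0.0562.

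Other genes of the elastic fibre, chosen by function with earlier results known, were read by the brightest tested probe set per gene. Partners of the fibre had 19 tested genes, 11 lower and 8 higher, with a median log2 change of -0.07 and 0 past the adjusted threshold. At an unadjusted p under 0.05, 1 of the 19 was lower and 4 were higher, beside 8.18% lower and 6.03% higher of all tested probe sets. The groups did not overlap for 1 lower and 2 higher of the 19, beside 10.8% lower and 6.55% higher of all. Bgn, the proteoglycan biglycan, read 11.39, 11.36 and 11.82 on deficient arrays 1 to 3, against 11.93, 11.92 and 12.08 on adequate arrays 1 to 3, without overlap, a log2 change of -0.45 ± 0.17 (SE). Loxl2, a lysyl oxidase relative, had 0.55 ± 0.21, but its other tested probe set had -0.02.

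Postn, the matricellular protein periostin, had a log2 change of 0.76 ± 0.30 (SE), and Hmcn1, a long fibulin-family protein, 0.63 ± 0.26. Both were high on deficient arrays 1 and 2, at means of 1.16 and 0.95 above the adequate mean. Deficient array 3 was at the adequate level for both, with -0.02 for Postn.

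Latent TGF-beta is stored on fibrillin microfibrils through its binding proteins. Of the 12 tested genes of that store and its signalling, 9 were lower and 3 higher, with a median log2 change of -0.22 and 0 past the adjusted threshold, beside 55.3% of all tested probe sets below 0 and a median of -0.05. At an unadjusted p under 0.05, 3 of the 12 were lower and 1 higher, against 8.18% and 6.03% of all. The groups did not overlap for 3 lower and 1 higher of the 12, against 10.8% and 6.55% of all. Bmp1, the protease that trims procollagens and activates Lox, read 10.24, 10.11 and 10.68 on deficient arrays 1 to 3, against 10.91, 10.84 and 11.06 on adequate arrays 1 to 3, a log2 change of -0.59 ± 0.18 (SE). Its other tested probe set had -0.57. The ligand Tgfb3 had -0.64 ± 0.20 and the inhibitory Smad7 0.50 ± 0.18, both without overlap between the groups, and the other tested Smad7 probe set had 1.26. Ltbp2, a microfibril protein related to the latent TGF-beta binding proteins, had -0.64 ± 0.26, with deficient array 3 at -0.04 from the adequate mean.

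Genes that support cross-linking, by copper supply, lysine and proline hydroxylation or as tropoelastin chaperones, had 15 tested members, 13 lower and 2 higher, with a median log2 change of -0.25, beside 55.3% below 0 and a median of -0.05 over all tested probe sets. None of the 15 passed the adjusted threshold in limma, and 4 were lower and 0 higher at an unadjusted p under 0.05, where 8.18% of all were lower. The groups did not overlap for 5 lower ones, beside 10.8% of all tested probe sets. Glb1, whose splice variant is the elastin-binding protein, read 10.10, 9.97 and 10.51 on deficient arrays 1 to 3, against 10.80, 10.72 and 11.11 on adequate arrays 1 to 3, a log2 change of -0.68 ± 0.19 (SE). Plod1, a lysyl hydroxylase of collagens, had -0.51 ± 0.15, and Fkbp10, a collagen chaperone, -0.42 ± 0.14. For these 3 genes deficient array 3 was also below every adequate array, at -0.36, -0.34 and -0.35 from the adequate mean. Plod3 had -0.43 ± 0.19, with deficient array 3 at -0.05.

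Elastases and their inhibitors had 14 tested genes, 11 lower and 3 higher, with a median log2 change of -0.26 and 0 past the adjusted threshold, where 55.3% of all tested probe sets were below 0. Only 1 of the 14 was lower and 0 higher at an unadjusted p under 0.05, near the 8.18% lower of all. Mmp2, a gelatinase that also cuts elastin, had -0.34 ± 0.17 (SE), and the elastolytic cathepsins Ctss and Ctsk had -0.35 ± 0.19 and -0.30 ± 0.19. Cela1, a pancreatic elastase, read 6.51, 4.69 and 7.21 on deficient arrays 1 to 3, against 7.37, 6.73 and 8.36 on adequate arrays 1 to 3, partly below 6.46, the limit of the filter on dim probe sets, and a fold is left out. The macrophage elastase Mmp12 was too dim to test.

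**Figure D4:**
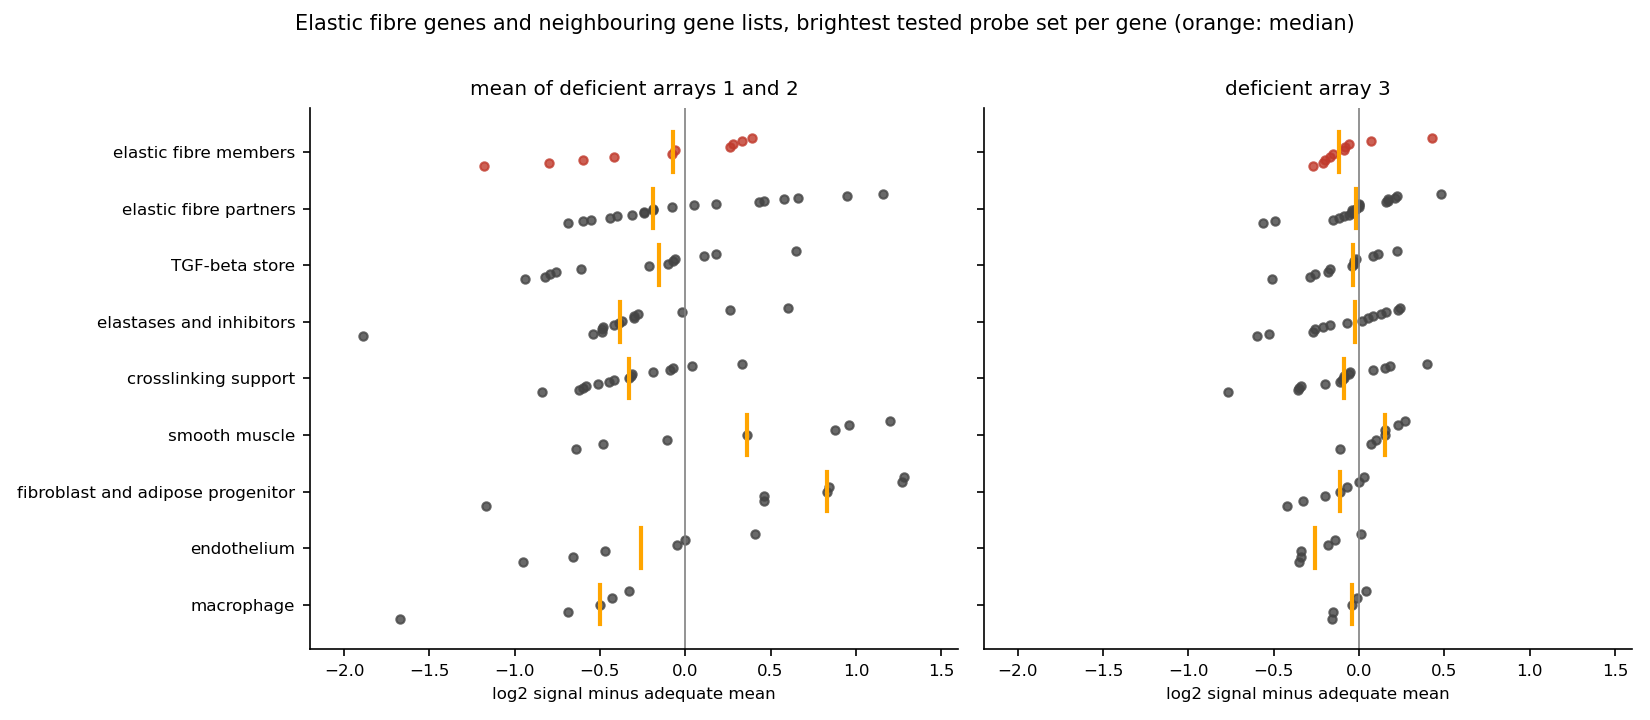
Log2 signal minus the adequate mean per gene (points, brightest tested probe set) for the elastic fibre members (red) and neighbouring lists (grey), as the mean of deficient arrays 1 and 2 (left) and on deficient array 3 (right), with each list's median in orange. The fibroblast and adipose progenitor median is 0.83 on deficient arrays 1 and 2, against -0.11 on deficient array 3.

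Marker sums for cells that make or border elastic fibres are given beside the Eln signal. Of 7 smooth muscle markers 5 were higher, counting Acta2 at a log2 change of 0.00, and 2 lower, with summed signals of 73142 to 112379 on the deficient arrays and 58853 to 71594 on the adequate arrays. Of 7 fibroblast and adipose progenitor markers 6 were higher and 1 lower, with sums of 83074 to 174097 on the deficient and 79009 to 93066 on the adequate arrays. The lowest sum in the deficient group was that of deficient array 3 in both lists, so these sums were highest on deficient arrays 1 and 2, where Eln was lowest. Sums of linear signal weigh the brightest genes most. Mylk, Myh11, Tagln and Cnn1 averaged 1.2, 0.96, 0.88 and 0.36 above the adequate mean on deficient arrays 1 and 2. Smtn, Des and Acta2 were at -0.64, -0.48 and -0.11 there. The other tested probe sets of Mylk, Myh11 and Smtn had log2 changes of 0.31, -0.20 and -0.33. The high collagen signals, such as Col3a1 at 1.27 above the adequate mean on deficient arrays 1 and 2, stood beside low Eln on the same arrays. Thy1, the 1 lower marker of the fibroblast list, was at -1.17 from the adequate mean there. Its log2 change was -0.92 ± 0.26 (SE), without overlap between the groups, and its other tested probe set had -0.63.

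Of 6 tested endothelial markers 4 were lower, with sums of 8509 to 8987 on the deficient and 9351 to 10151 on the adequate arrays. All 5 macrophage markers were lower, where 55.3% of all tested probe sets were below 0. Their sums were 2700, 2755 and 4353 on deficient arrays 1 to 3 and 3890 to 5092 on the adequate arrays. Deficient array 3 thus lay within the adequate range. Mesothelial markers had 3 of 4 lower, with sums of 5476 to 7426 on the deficient and 6146 to 7858 on the adequate arrays. Cartilage, another source of elastic matrix, gave low signal, with Col2a1 and Acan together at 181 to 357 on the deficient and 181 to 242 on the adequate arrays, and Comp and Matn1 too dim to test. None of these marker genes passed the adjusted threshold, and the part of these cell types in the values of the elastic fibre genes was not tested.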

How the data were processed

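RNA from 6 tissue samples was labelled with biotin and read on 1 array each, and the titles give diet group and replicate number. Per the labels, the authors used MAS5 within Affymetrix Expression Console (no versions given), and the deposited values are intensity on a linear scale. MAS5 summarises each probe set and scales the arrays to each other: after trimming 2% at both ends every array averages 500, so a difference in total RNA would not show. No detection calls were used. Array columns were compared in pairs and 0 were identical.

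From the 31099 rows, 57 controls were set aside. Signals were taken to log2 with no offset, and a probe set was tested if its average over the 6 arrays reached the 40th percentile (6.46), as 18625 did. A single gene is named for 20826 probe sets, and 20758 of these were found by Entrez identifier in RefSeq's GRCr8 gene table, changing 0 symbols. The deficient minus adequate difference was fitted in limma 3.58.1 (R 4.3.3; lmFit, eBayes with trend) and two-sided p-values were adjusted by Benjamini-Hochberg across all tested probe sets, at 0.05. Gene lists took the brightest tested probe set per gene. Members, lists and tests were chosen with earlier results of these data known. Every member is named, with up to 4 genes per function list by smallest unadjusted p, 5 nearest profiles for Eln and 3 for other member probe sets without overlap. Cell type markers were picked for mention after their values were seen.

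The fit was tested on simulated data with 200 of the 18625 probe sets altered. Of these, 40% were found at a log2 change of 1 and 86% at 2, and 0 calls were false. Such rates belong to the simulated data only. Whether they hold for the real arrays, where deficient arrays 1 and 2 stood apart from the others, was not tested. The alternatives changed the normalization (quantile), the filter (none, or the 60th percentile), the offset (50), the variance trend (none), the weights (per array), the block (replicate number), the arrays (each left out, or deficient array 3 alone) and the covariates (hybridisation controls). Matplotlib 3.10.9 drew the figures.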

Additional observations from a re-analysis of the deposited data

How the results depend on the processing

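The count of elastic fibre probe sets past the adjusted threshold was 0 under quantile normalization, no filter, the 60th percentile filter (13 tested), the offset of 50, no variance trend, the hybridisation covariate and deficient array 3 alone, and 3 of 14 with array weights. Leaving out 1 array gave 0 to 3, the 3 being without deficient array 3. Over all tested probe sets the count was 3462 with array weights and 0 to 3618 when 1 array was left out, again with the 3618 without deficient array 3, and the cause was not tested. The family's median log2 change was -0.20 after quantile normalization, when that of all tested probe sets was -0.03, and ranged from -0.083 to 0.015 with 1 array left out. The bright Eln probe set, Mfap2, Fbln5, Fbn2, Mfap5, the bright Fbln1 and both Lox probe sets kept their direction in all 15 alternatives, with Eln between -1.18 and -0.27.

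Directions turned for small values. Fbn1 1368829_at was -0.13 after quantile normalization, -0.21 for deficient array 3 by itself and -0.19 once the hybridisation controls were a covariate. The dimmer Eln probe set was 0.048, 0.74 and 0.72 in the same 3 settings. In the last 2 of these settings, Fbn1 1387351_at was 0.08 and 0.07 and Loxl1 -0.15 and -0.19. These 2 settings are nearly the same comparison, since the controls were high only on deficient arrays 1 and 2. With 1 array left out, the dimmer Eln probe set ranged from -0.42 to 0.20, Fbn1 1387351_at from -0.09 to 0.12, Loxl1 from -0.005 to 0.27, the dimmer Fbln1 probe set from -0.71 to 0.017 and Fbln2 from -0.18 to 0.036. The cause was not tested.

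No label says that the replicate numbers pair the arrays, and the check was mixed: deviations of same-numbered arrays correlated at 0.107, 0.153 and 0.007, and 5 of 6 arrays correlated best with their own number, so they were not treated as pairs. With the replicate block 0 elastic fibre probe sets and 0 of all tested probe sets passed, as without it, and 3235 were at an unadjusted p under 0.05, against 2647. Signal over background is not known, since no detection calls were used.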
